A study of Mus musculus with 10 samples.

Results

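The BCL2 family is a group of proteins that act at the outer membrane of the mitochondrion and set whether a cell enters apoptosis. The genes described were Bcl2, Bcl2l1 (BCL-XL), Bcl2l2 (BCL-W), Mcl1, Bax, Bak1, Bad, Bid, Bcl2l11 (BIM) and Bbc3 (PUMA), chosen by name, and every array spot outside the controls whose RefSeq transcript belonged to 1 of them was taken. This gave 10 of the 18539 genes named on the array and 16 of its 41174 probes. RNA was measured on 10 arrays with a pair of dyes, 1 array for each of 10 male C57BL/6J mice, which had received a diet enriched in n-3 polyunsaturated fatty acids from fish oil (FD) or a standard lab diet (SD) from the age of 3 weeks for about 20 weeks, until about 5 months of age. RNA of the left hemibrain of each mouse carried Cy-5, and another RNA carried Cy-3. The study was made to compare the diets.

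The diet of each mouse was not settled by the labels. They gave FD for the Cy-5 RNA of all 10 mice and also called the same samples controls, so no diet comparison was made and the mice are named by their animal numbers. The Cy-3 RNA was given as a pool of hemibrain from SD mice in the labels and as a commercial reference RNA in the methods. Markers of brain cells were far higher in Cy-5 than in Cy-3, with a list median of 5.75 on the log2 scale for 6 neuronal genes (from Eno2 at 2.29 to Nefl at 8.52), 5.61 for 6 astrocyte genes (from Gja1 at 0.83 to Slc1a2 at 10.23) and 4.94 for 6 oligodendrocyte genes (Mobp, the lowest, at 3.46). Genes of proliferating cells were far lower, with a list median of -6.23 over 6 genes, from Aurkb at -7.70 to Bub1 at 0.37. Aurkb was not well above background in Cy-5 on any array. All ratios below are therefore ratios of hemibrain to an RNA of unsettled origin. A hemibrain holds many cell types, and fewer cells of a type cannot be told apart from less RNA per cell. The arrays lay on 4 slides, of which slides 2 and 3 held 4 arrays each and slides 1 and 4 held C10-413 and C10-437 alone. Cy-5 signal rose well above background for 68.2% to 76.9% of probes on 9 arrays and for 49.6% on C10-434, so results that rest on C10-434 are given without it as well.

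Anti-apoptotic members (Bcl2, Bcl2l1, Bcl2l2, Mcl1) hold the pore-forming effectors Bax and Bak1 in check. BH3-only members (Bad, Bid, Bcl2l11, Bbc3) carry death signals: they bind the anti-apoptotic proteins, and some of them also switch on the effectors. In the adult brain, Bcl2l1 is known as a main survival factor of neurons.

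On their brightest probes, the anti-apoptotic genes other than Mcl1 were higher in the hemibrain RNA than in the Cy-3 RNA, and the effectors and BH3-only genes were mostly lower. Second probes of Bcl2, Bcl2l1 and Bak1 did not keep their direction on every array. With each gene read on its brightest probe, Bcl2, Bcl2l1 and Bcl2l2 were above 0 on the log2 Cy-5/Cy-3 scale on every array, which 35.3% of all genes were. Mcl1, Bax, Bak1, Bid and Bcl2l11 were below 0 on every array with a value, against 30.0% of all genes. Bad and Bbc3 were below 0 on 9 arrays and above 0 on 1. The median over the arrays was positive for 3 of the 4 anti-apoptotic genes and negative for both effectors and all 4 BH3-only genes, and the median over all genes was 0.10. Signals were well above background in both dyes on all 10 arrays for 8 members, against 56.8% of all genes. The exceptions were Bad, which fell short in Cy-5 on C10-434, and Mcl1, whose spot was flagged as an outlier on C10-435. Read as the mean of all probes of a gene, 2 members were above 0 on every array, since Bcl2l1 then was not.

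**Figure D1:**
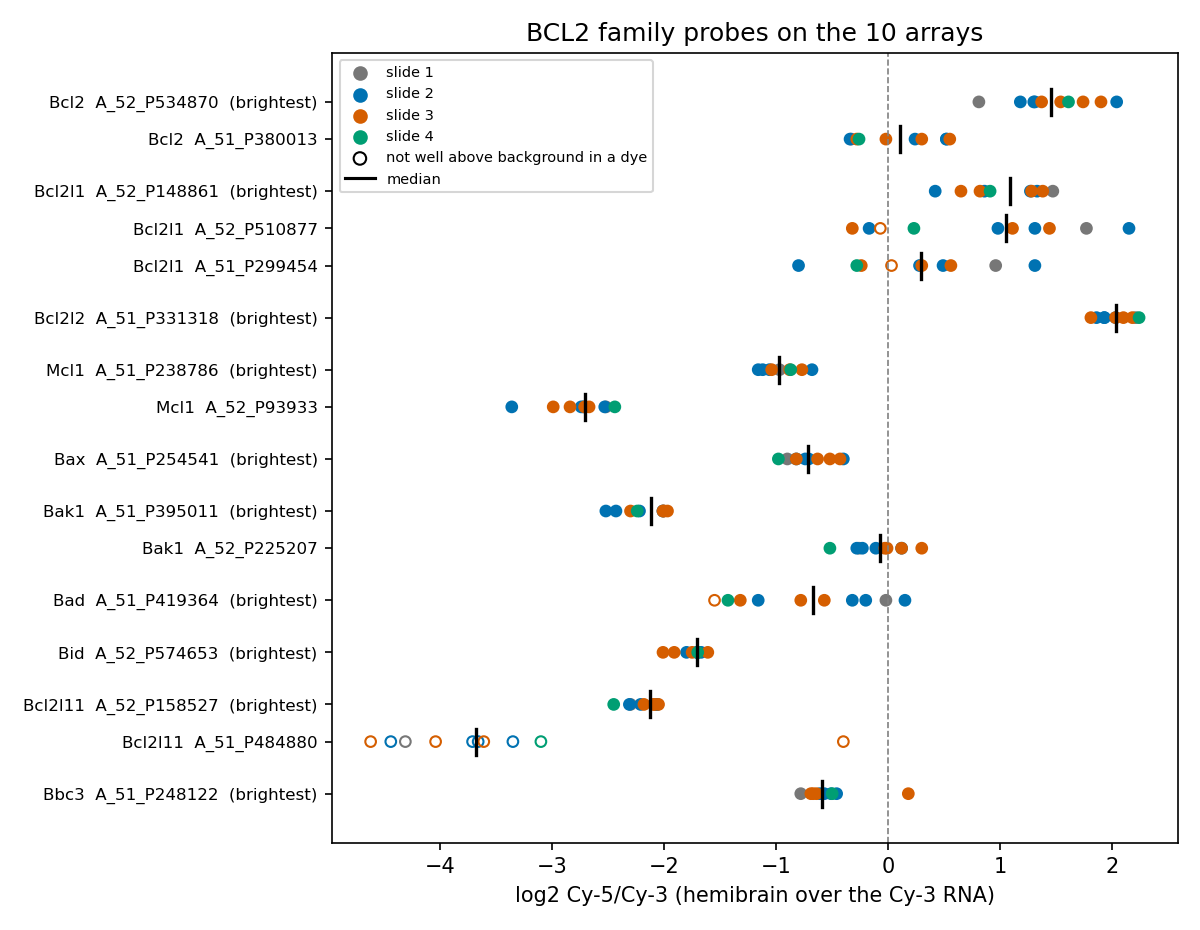
Log2 Cy-5/Cy-3 (x axis) of the 16 member probes (y axis, by gene) on the 10 arrays. Each point is 1 array, coloured by slide, open where a dye was not well above background, and the black line is the median. The brightest probes of Bcl2, Bcl2l1 and Bcl2l2 lie right of 0 on every array, and second probes of Bcl2 and Bak1 lie close to 0.

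Bcl2l2, an anti-apoptotic gene prominent in neurons, had the highest ratio of the members. Its log2 Cy-5/Cy-3 was 1.81 on the lowest array (C10-435), 2.03 at the median and 2.24 on the highest (C10-437), a median 4.08-fold excess in the hemibrain RNA. Its range of 0.43 was exceeded by 94.9% of all genes, dim ones included, where the median range was 0.97. Among genes well above background in both dyes on all arrays, the median range was 0.79. With normexp the range of Bcl2l2 was 1.21.

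Bcl2, the founding member, was represented by a pair of probes that did not follow each other. The brighter one (A_52_P534870), printed 10 times per array, read 0.81 on C10-413, 1.31 on C10-415, 1.18 on C10-416, 1.30 on C10-417, 2.04 on C10-423, 1.37 on C10-424, 1.54 on C10-425, 1.74 on C10-434, 1.90 on C10-435 and 1.61 on C10-437. C10-423 was the highest and C10-413 the lowest, and the median of 1.45 was a 2.73-fold excess. The SD among its spots within an array was 0.03 to 0.11, well below the range of 1.23 between arrays. The second probe (A_51_P380013), named through another RefSeq transcript of the gene, read from -0.34 on C10-423 to 0.55 on C10-425 with a median of 0.11, and was above 0 on 5 arrays and below 0 on 5. It differed from the brighter probe by 0.66 to 2.38 and had a correlation with it of -0.13 over the 10 arrays. The excess of Bcl2 thus held for the brighter probe alone.

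Bcl2l1 had 3 probes, which moved together over the arrays at different ratios. The brightest (A_52_P148861), also printed 10 times, read 1.47 on C10-413, 1.27 on C10-415, 1.33 on C10-416, 0.86 on C10-417, 0.42 on C10-423, 1.38 on C10-424, 1.28 on C10-425, 0.65 on C10-434, 0.82 on C10-435 and 0.91 on C10-437. Its median of 1.09 was a 2.13-fold excess, with C10-423 lowest and C10-413 highest, the reverse of Bcl2. The SD among its spots was 0.06 to 0.17, against a range of 1.05 between arrays. The other probes were dimmer and ranged more widely, from -0.32 to 2.15 for A_52_P510877 and from -0.80 to 1.31 for A_51_P299454. Each of them was above 0 on 7 arrays and below 0 on 3, and on C10-434 the Cy-5 signal of both was too close to background to pass the flag. The correlation between pairs of the 3 probes was 0.86 to 0.93 over the 10 arrays.

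Mcl1, a short-lived anti-apoptotic protein needed by many cell types, was the only anti-apoptotic member lower in the hemibrain RNA. Its brightest probe (A_51_P238786) had a value on 9 arrays, with a lowest of -1.16 on C10-416, a median of -0.97 and a highest of -0.68 on C10-423. That median was a 1.96-fold deficit. The second probe (A_52_P93933) was lower still, from -3.36 on C10-415 to -2.44 on C10-437 with a median of -2.71, a 6.56-fold deficit. The probes of Mcl1 gave the same direction on all 9 shared arrays and differed in size by 1.55 to 2.29 on the log2 scale.

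Both effectors, which form the pores in the mitochondrial membrane, were lower in the hemibrain RNA on their brightest probes. Bax, printed 10 times per array, read -0.98 on the lowest array (C10-437), -0.72 at the median and -0.40 on the highest (C10-415), a 1.65-fold deficit with an SD among spots of 0.05 to 0.11. Bak1 read -2.52 on C10-423, -2.12 at the median and -1.97 on C10-434 on its brighter probe (A_51_P395011), a 4.33-fold deficit. Its second probe (A_52_P225207) was close to 0, from -0.52 on C10-437 to 0.30 on C10-434 with a median of -0.07, above 0 on 3 arrays and below 0 on 7. The difference between the probes of Bak1, 2.07 at the median and at least 1.72 on every array, was larger than the spread of either probe. The deficit of Bak1 thus held for the brighter probe alone.

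Among the BH3-only genes, Bid and Bcl2l11 were the lower pair. Bid, which links death receptors to the mitochondrion, read -2.01 on C10-435, -1.71 at the median and -1.61 on C10-424, a 3.26-fold deficit. Bcl2l11, whose product BIM binds all the anti-apoptotic members, read -2.45 on C10-437, -2.13 at the median and -2.05 on C10-424 on its brighter probe (A_52_P158527), a 4.39-fold deficit. Both had a range of 0.40, exceeded by 96.1% of all genes, dim ones included. With normexp the range was 1.5 for Bid and 1.88 for Bcl2l11, and with the mean of all probes that of Bcl2l11 was 2.13. The second probe of Bcl2l11 (A_51_P484880) stayed near background in Cy-5 on every array and was well above it in Cy-3 on all 10. Estimated from means over the arrays, its level was 4.74-fold lower in the hemibrain RNA. For that estimate, the Cy-5 level of each array was the probe's own signal or the lowest signal of any probe well above background, whichever was higher. The estimate is an average and not a bound for each array. On C10-434 this probe read -0.40, and on the other 9 arrays it lay between -4.62 and -3.10.

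Bbc3, a target of p53, read -0.78 on C10-413, -0.59 at the median and 0.18 on C10-434. It was thus 1.51-fold lower at the median, and C10-434 was the only array above 0. Without C10-434 its range was 0.33 in place of 0.96. Bad, whose product is held inactive by survival kinases, gave a faint signal (36.4 to 361 in Cy-5) and had a wide range. It read -0.02 on C10-413, -0.20 on C10-415, 0.15 on C10-416, -0.32 on C10-417, -1.16 on C10-423, -0.57 on C10-424, -0.78 on C10-425, -1.55 on C10-434, -1.32 on C10-435 and -1.43 on C10-437. The value was near 0 on the first 4 of these arrays and at or below -1.16 on C10-423, C10-434, C10-435 and C10-437. The error that the scanner software gave to a Bad ratio was 0.21 to 0.71 on the log2 scale, against a range of 1.71, or 1.59 without C10-434. That range was 0.94 with normexp and 0.99 with subtraction to a floor.

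Ordered by the median ratio, the members ran from Bcl2l2, Bcl2 and Bcl2l1 through Bbc3, Bad, Bax and Mcl1 to Bid, Bak1 and Bcl2l11. Neighbours that kept their order on every shared array were Bcl2l1 above Bbc3 (10 of 10 arrays), Mcl1 above Bid (9 of 9) and Bid above Bak1 (10 of 10). The order of the other neighbours changed between arrays. Bcl2l2 was above Bcl2 on 8 of 10 arrays and Bcl2 above Bcl2l1 on 7 of 10, Bbc3 and Bad exchanged places on 5 arrays, as did Bad and Bax, Bax was above Mcl1 on 7 of 9, and Bak1 was above Bcl2l11 on 6 of 10. The order is that of ratios between the dyes and not of transcript levels.

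The spread of the members lay mostly in Cy-5. The level of each dye was rebuilt from the loess ratio and the mean log2 brightness of both dyes. That mean was quantile-scaled between arrays, and the dyes were not scaled separately. On this scale, the log2 level of the brighter Bcl2 probe had a range of 1.31 in Cy-5 and 0.11 in Cy-3. The brightest Bcl2l1 probe had a range of 1.06 in Cy-5 and 0.11 in Cy-3. Bad ranged over 2.02 in Cy-5 and 0.47 in Cy-3, or 1.71 and 0.43 without C10-434. The Cy-3 level of these probes thus differed far less between arrays than the hemibrain level. The second Bak1 probe ranged over 1.65 in Cy-5 and 1.11 in Cy-3, or 1.25 and 1.03 without C10-434. The arrays share the Cy-3 RNA, and the ranges of all genes in each dye were not set beside these. The smaller Cy-3 spread is therefore not shown to be particular to the members.

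**Figure D2:**
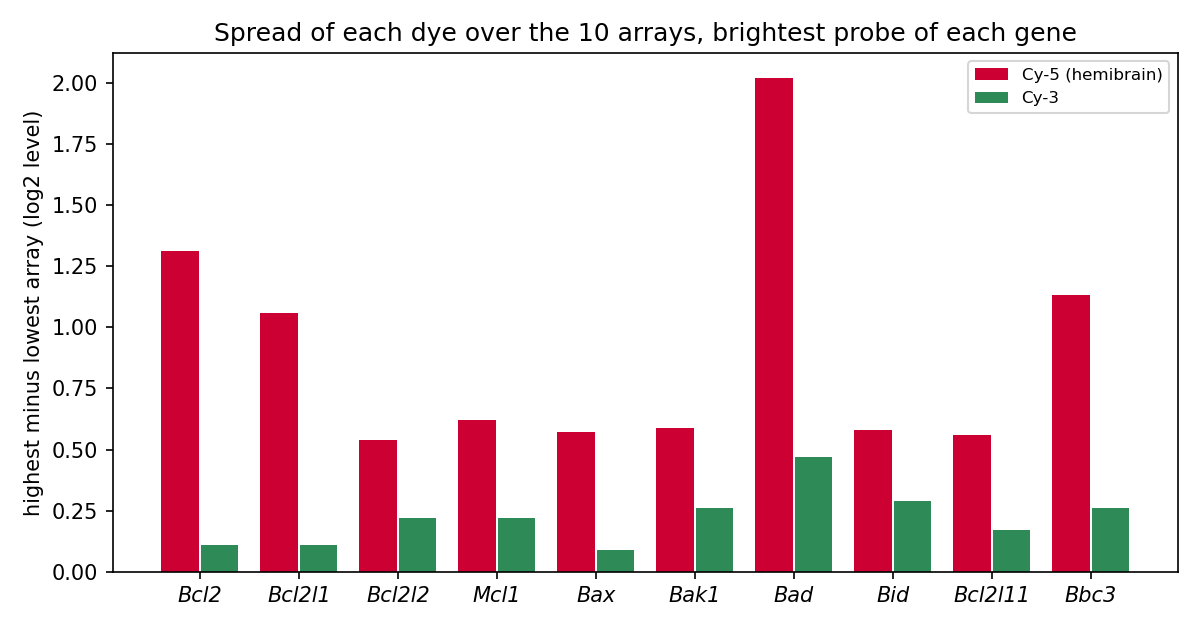
Range over the 10 arrays (y axis) of the brightest probe of each member (x axis), in Cy-5 (red bars) and Cy-3 (green bars). The range is the highest minus the lowest log2 level, rebuilt from the ratio and the scaled mean brightness of both dyes. The Cy-5 bar is the taller one for every member and reaches 1.31 for Bcl2 and 2.02 for Bad, with Cy-3 at 0.11 and 0.47.

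The brighter Bcl2 probe and the Bcl2l1 probes ran opposite to each other over the arrays, and Bad ran with Bcl2l1. The difference of Bcl2 minus Bcl2l1 on the brightest probes was lowest on C10-413 (-0.66) and highest on C10-423 (1.62), and it was above 0 on 7 arrays. As a description over 10 arrays, which share the Cy-3 RNA and their loess fit, the correlation of Bcl2 with Bcl2l1 was -0.83 on the brightest probes and -0.89 on each of the dimmer Bcl2l1 probes. Bcl2 and Bad had a correlation of -0.85, and Bcl2l1 and Bad 0.74 on the brightest Bcl2l1 probe and up to 0.93 on the dimmer ones. Bad and the dimmer Bcl2l1 probes lie close to background. With each array left out in turn, Bcl2 with Bcl2l1 stayed between -0.89 and -0.75, and with the other normalizations and with subtraction to a floor it was -0.78 to -0.72. The second Bcl2 probe did not share this pattern, with correlations of 0.12 to 0.36 with the Bcl2l1 probes and 0.27 with Bad. The brightest Mcl1 probe, over 9 arrays, had 0.72 with the brighter Bcl2 probe, -0.77 to -0.55 with the Bcl2l1 probes and -0.73 with Bad. For the second Mcl1 probe these were 0.06, -0.28 to -0.19 and -0.27. The brighter Bak1 probe had -0.44, 0.4 to 0.64 and 0.16. Bcl2 with Bcl2l1 and Bad gave the lowest values of all pairs of member probes. The brightest Mcl1 probe had values in the same directions as Bcl2. The pattern is thus not shown to be particular to Bcl2, Bcl2l1 and Bad. With normexp background correction the correlation of Bcl2 with Bcl2l1 was 0.27, and -0.40 without C10-413, an array whose normexp ratios had a correlation of 0.49 with the ratios used here. Bcl2l1 with Bad then was 0.11, and 0.40 without C10-413, and Bcl2 with Bad -0.71 and -0.78. With subtraction to a floor, Bcl2l1 with Bad was 0.58.

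Markers of several cell types moved with these members too. The mean deviation of 6 oligodendrocyte markers from their medians, which ran from -0.44 to 0.31 over the arrays, had a correlation of 0.59 with Bad, 0.33 with Bcl2l1 and -0.55 with Bcl2. For 6 endothelial markers, from -0.31 to 0.35, the values were 0.79 with Bad, 0.32 with Bcl2l1 and -0.65 with Bcl2, and for 6 microglial markers, from -0.20 to 0.08, they were 0.69, 0.48 and -0.68. The deviation of 6 lymphoid and blood markers, from -0.26 to 0.28, had a correlation of 0.63 with Bcl2, -0.58 with Bcl2l1 and -0.53 with Bad. Neuronal, astrocyte and choroid plexus lists had values of -0.23 to 0.33. The proliferation list, with the widest deviation (-0.53 to 0.90), had 0.43 with Bcl2, -0.56 with Bcl2l1 and -0.48 with Bad. Without C10-434, the value of the oligodendrocyte list was 0.91 with Bad and -0.71 with Bcl2. The neuronal list then had 0.78 with Bad, 0.45 with Bcl2l1 and -0.58 with Bcl2, and the astrocyte list 0.52, 0.36 and -0.44. For the choroid plexus list these values were 0.58, -0.02 and -0.26, and for the proliferation list -0.17, -0.48 and 0.43. The share of probes well above background in Cy-5 had a correlation of -0.14 with Bcl2, 0.24 with Bcl2l1 and 0.32 with Bad, and of 0.25, -0.31 and -0.35 without C10-434. The part of any of these in the pattern of Bcl2, Bcl2l1 and Bad was not tested. Microglial markers had a list median of 1.82 (from Tmem119 at 0.33 to P2ry12 at 6.22). P2ry12 was not well above background in Cy-3 on any array. Endothelial markers had a list median of 3.54 (from Pecam1 at -0.03 to Cldn5 at 5.38). For lymphoid and blood markers it was 0.24 (from Ptprc at -5.68 to Alas2 at 4.37). For choroid plexus markers it was 4.92 (from Aqp1 at -2.81 to Ttr at 6.70).

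**Figure D3:**
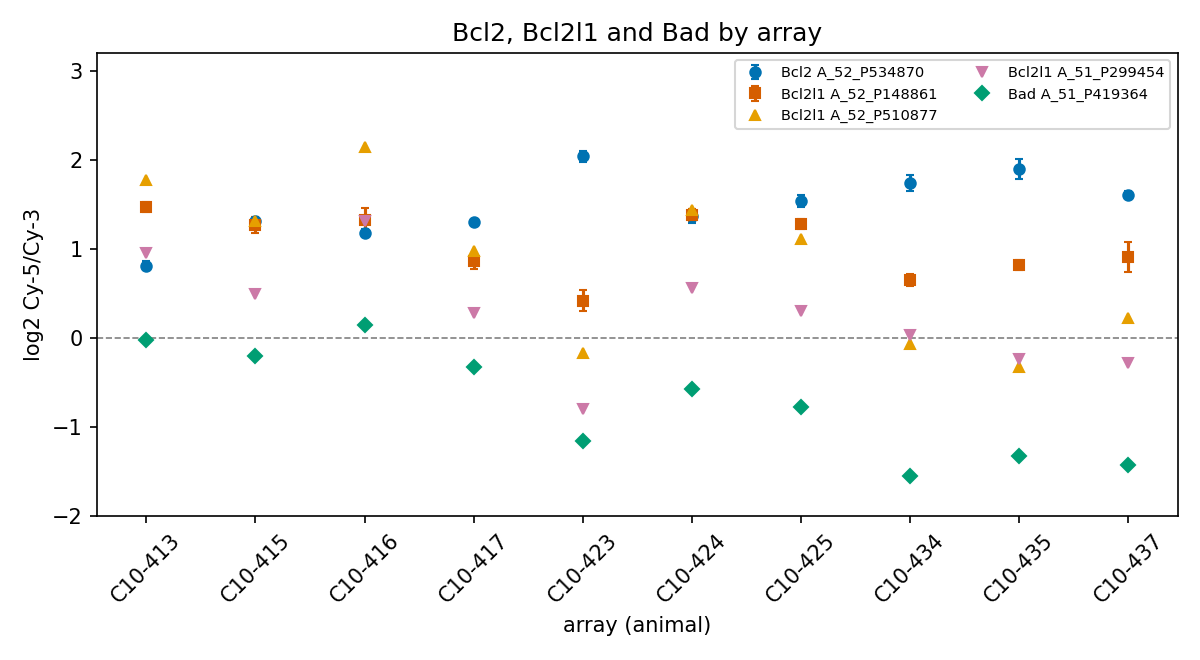
Log2 Cy-5/Cy-3 (y axis) of the brighter Bcl2 probe, the 3 Bcl2l1 probes and Bad on each array (x axis, in order of animal number). Bars are the SD among the 10 spots of a probe, and probes printed once have none. Bcl2 is highest (2.04) and the brightest Bcl2l1 probe lowest (0.42) on C10-423, and the reverse holds on C10-413.

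Promoters are shown for Bcl2, Bcl2l1 and Bad, whose pattern over the arrays is described above. Each runs from 250 bases before to 50 after a transcript start in RefSeq (GRCm38.p6), 5′ to 3′ on the gene's strand, with CpG dinucleotides in capitals. Bcl2 is at chr1:106714241-106714540 (minus strand), Bcl2l1 at the most upstream of its starts in the promoter table used, at chr2:152831679-152831978 (minus strand), and Bad at its most upstream start at chr19:6941611-6941910 (plus strand).
Bcl2: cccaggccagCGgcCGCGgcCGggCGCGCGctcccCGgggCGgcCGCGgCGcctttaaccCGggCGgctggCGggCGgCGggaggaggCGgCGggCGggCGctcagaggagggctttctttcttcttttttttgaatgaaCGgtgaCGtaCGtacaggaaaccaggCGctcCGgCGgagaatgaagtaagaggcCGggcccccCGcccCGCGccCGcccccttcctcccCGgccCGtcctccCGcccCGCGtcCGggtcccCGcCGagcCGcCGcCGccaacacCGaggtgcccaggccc
Bcl2l1: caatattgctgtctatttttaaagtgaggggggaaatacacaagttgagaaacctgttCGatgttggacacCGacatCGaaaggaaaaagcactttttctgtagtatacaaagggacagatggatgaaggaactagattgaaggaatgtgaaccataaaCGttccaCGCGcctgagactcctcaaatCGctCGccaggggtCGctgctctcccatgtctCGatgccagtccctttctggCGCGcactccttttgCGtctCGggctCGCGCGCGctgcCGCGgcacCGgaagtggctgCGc
Bad: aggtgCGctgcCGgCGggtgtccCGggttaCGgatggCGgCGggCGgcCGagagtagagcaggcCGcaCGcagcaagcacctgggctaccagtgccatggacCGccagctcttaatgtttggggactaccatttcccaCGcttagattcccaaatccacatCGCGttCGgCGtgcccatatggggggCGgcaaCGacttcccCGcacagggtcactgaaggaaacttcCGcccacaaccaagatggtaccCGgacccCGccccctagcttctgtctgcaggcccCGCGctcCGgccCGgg

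The Bcl2 window holds 44 CpG dinucleotides, more than 97.8% of the 32851 promoters of that length, the Bcl2l1 window 22 and the Bad window 27, and the median promoter holds 7. The GC box GGGCGG, searched on both strands, is in the windows of Bcl2 and Bad and not in that of Bcl2l1, and 35.7% of all promoters hold it. The TATA box TATAAA is in none of the 16 start windows of the 10 members, and in 13.6% of all promoters. These matches are descriptions of the letters in the windows.

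The genes whose ratios followed a member most closely were sought among 10532 other genes well above background in both dyes on all arrays. For Bcl2 they were Zbtb6 and Rasgrp3 (r = 0.97 for both over 10 arrays), for Bcl2l1 Cltb and Tm9sf4 (0.99 for both), for Bax 1700037C18Rik and Otud7b (0.98 for both), and for Bcl2l11 Alg11 and Sqstm1 (0.92 for both). A correlation above 0.9 was shared by 309 genes with Bcl2l1, 173 with Bax, 103 with Bcl2 and 3 with Bcl2l11. Without C10-434, Zbtb6 and Acss1 were closest to Bcl2 (0.98 and 0.97), Rps6ka4 and Cltb to Bcl2l1 (0.99), 1700037C18Rik and Ing4 to Bax (0.98), and Txnip and Slc15a4 to Bcl2l11 (0.96 and 0.94).

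On the brightest probes, the balance of Bcl2 and of Bcl2l1 to Bax was positive on every array. Bcl2 minus Bax, a difference of log2 ratios, had a median of 2.17, from 1.71 on C10-415 to 2.78 on C10-423, so that Bcl2 stood 4.50-fold higher relative to Bax in the hemibrain RNA than in the Cy-3 RNA. Bcl2l1 minus Bax had a median of 1.78 (3.42-fold), from 1.09 on C10-434 to 2.37 on C10-413. With all probes of a gene averaged, the Bcl2 median was 1.52. The array with the highest Bcl2 balance had a low Bcl2l1 balance of 1.16, and C10-413, with the highest Bcl2l1 balance, had a Bcl2 balance of 1.71. These differences compare ratios, not the amounts of Bcl2, Bcl2l1 and Bax.

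**Figure D4:**
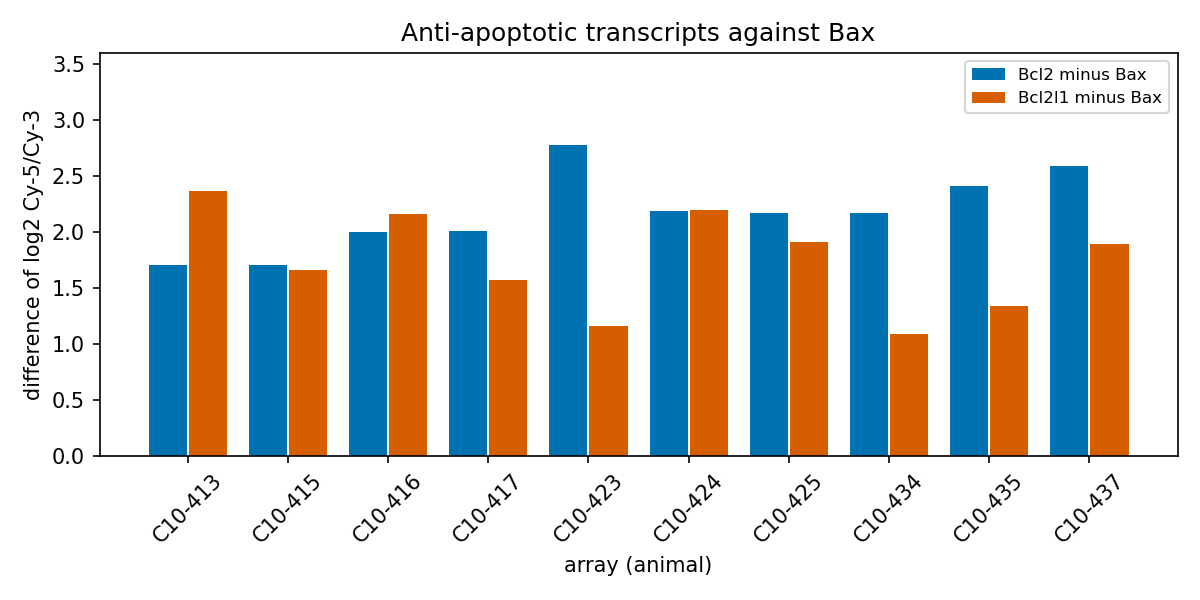
Bcl2 minus Bax (blue bars) and Bcl2l1 minus Bax (orange bars), as differences of log2 Cy-5/Cy-3 on the brightest probes (y axis, from 0), on each array (x axis). Every bar is above 0, the blue ones from 1.71 to 2.78 and the orange ones from 1.09 to 2.37.

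Slides 2 and 3 were compared as a technical batch, which cannot be told apart from diet here since the diets were not settled. Between them, no member probe differed past the threshold. In limma over all 40299 probes with a value on the 8 arrays, 30 probes (0.0744%) were called at a Benjamini-Hochberg adjusted p under 0.05, and 0 of the 15 member probes tested were. Unadjusted, 0 of these 15 had a p under 0.05, against 9.92% of all probes, and the slides overlapped for all 15, where they did not for 7.19% of all probes. The member probe with the smallest adjusted p was Bad, at -0.68 (SE 0.32, slide 3 minus slide 2, limma adjusted p = 0.561). With Cy-5 taken alone, 1 member probe was called, the second Bak1 probe (1.14, limma adjusted p = 0.0118), where 4.25% of all probes were. With Cy-3 alone the same probe was called (0.90, limma adjusted p = 0.000497), as was the dimmest Bcl2l1 probe (0.30, limma adjusted p = 0.0282), where 17.0% of all probes were. The second Bak1 probe thus shifted in both dyes, and its ratio differed by 0.22 (SE 0.15).

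Other BCL2 family genes were mostly lower in the hemibrain RNA. Of 16 listed, 13 were found, and the median of the 13 was -0.80. On every array, 1 was above 0 and 8 were below 0, against 35.3% and 30.0% of all genes. Becn1, an autophagy gene whose product binds BCL2, was the one above 0 on every array, at a median of 0.99 (from 0.12 to 1.18). Pmaip1 (NOXA), a BH3-only p53 target, had a median of -2.11, and Bnip3, a BH3-only gene of hypoxia and mitophagy, -2.16. Its relative Bnip3l was nearer 0 at -0.22. Bmf, a BH3-only gene, had a median of -1.14 and Bik, another, -1.56, with the Cy-5 signal of Bik well above background on 7 arrays. Bcl2l12 read -0.81, Bcl2l13 -0.80 and Bcl2a1b, an anti-apoptotic gene of blood cells, -0.79. Bcl2l15 was the lowest at -3.22 and Bcl2l14 the highest at 1.95, with the widest spread of the list (-0.29 on C10-413 to 3.22 on C10-434). Hrk, a neuronal BH3-only gene, had a median of 1.25, from -0.26 on C10-434 to 1.57 on C10-437. Without C10-434 its lowest value was 0.47, so that Hrk, like Becn1, was then above 0 on every array. The signal of Hrk passed the background flag on 7 arrays in Cy-5 but on 2 in Cy-3. Bcl2l10 was not well above background in either dye on any array.

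Downstream of the mitochondrion, 7 of 17 genes were above 0 on every array and 10 below, with a list median of -0.56. Of all genes, 35.3% were above 0 on every array and 30.0% below. Vdac1, a channel of the outer membrane to which several members bind, was the highest at 1.49 (from 1.25 to 1.73). Birc3, a caspase inhibitor, read -2.70 and Birc5 (survivin), which also serves cell division, -5.45. Among 18 upstream regulators, 5 were above 0 and 7 below 0 on every array, against the same shares of all genes, with a list median of -0.06. Trp73, a p53 relative, was at 1.25, whereas Casp8, which cleaves Bid, was at -3.64 (from -3.73 to -3.29). Bid and Casp8, neighbours in the death receptor route, were both below 0 on every array, as 30.0% of all genes were.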

How the data were processed

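The authors scanned Agilent 4x44k arrays and deposited, per array, Feature Extraction output (version 10.10.1.1 per the file headers): dye intensities on a linear scale, background-corrected and dye-normalized as processed signals, a log10 ratio of Cy-5 over Cy-3 with its error, and flags. The deposited table of 1 value per probe and array held log2 ratios (r with the log ratio 0.9972 to 0.9999).

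The log2 ratio of the processed signals was taken with loess in each array (span 0.3; R 4.3.3, limma 3.58.1), without control or outlier-flagged spots, averaging spots of a probe (43379 of 45018 spots). A probe was well above background where at least 0.5 of its spots were flagged so. Lacking gene symbols, the probes took their names from RefSeq transcripts of GRCm38.p6 (27198 of 41174 probes, 66.1%). A gene was read on its brightest probe. The number of arrays limits the precision, and spots on an array are technical repeats. The limma comparison between slides was tested on simulated data, and the outcome is not given here.

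Members and lists were chosen with earlier results of these data known. Genes named were the members, the other BCL2 family genes found, the 3 highest and 3 lowest downstream or upstream genes well above background in both dyes on all arrays, the 2 genes most like each of 4 members, and the highest and lowest gene of each marker list; 2 genes under this rule are not reported here. Alternatives were the deposited log ratio, median centring, the deposited table, normexp (offset 50, on median signals, since mean signals were not in the columns given), subtraction with a floor of 0.5, all probes of a gene, dim-probe filters, each dye alone and arrays left out. Correlations of Bcl2, Bcl2l1 and Bad under these settings were added after seeing the data.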

Additional observations from a re-analysis of the deposited data

Results flagged for a closer look

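Of 18 member measures, 2 had a single array set apart from the other arrays by a gap larger than Dixon's 95% limit, where chance flags about 1 in 20, or 0.9 here. Both were on C10-434, the array with the fewest probes well above background in Cy-5. Bbc3 read 0.18 on C10-434, with the other 9 arrays between -0.78 and -0.46. The second Bcl2l11 probe (A_51_P484880) read -0.40 there, with the other 9 between -4.62 and -3.10, and was not well above background in Cy-5 on any array.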

How the results depend on the processing

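The 3 members above 0 and 5 below 0 on every array became 2 above with the mean of all probes and 7 below with median centring. No member's median reversed: of 160 medians under the alternatives 140 moved by less than the SD between arrays and 20 by more. All 20 came from the deposited log ratio, median centring, the deposited table, normexp or the mean of all probes. Most of the 160 came from leaving out a single array, which can hardly move a median that far and moved none by more. The 140 thus say little about the processing. Of 160 ranges, 145 moved by less and 15 by more. Bcl2l1 minus Bax was 1.32 with normexp, and Bcl2 minus Bax 1.52 with the mean of all probes. Other BCL2 family genes above 0 on every array were 0 with the deposited log ratio or median centring, and 2 with subtraction to a floor or without C10-434. Downstream genes above 0 were 3 with normexp. Between the slides, 0 probes were called with normexp or the floor, 1713 in Cy-5 alone, 6837 in Cy-3 alone and 0 to 8 with an array left out. Member probes called were 1 in Cy-5 alone and 2 in Cy-3 alone. The slide difference of the second Bcl2l11 probe (0.62) was -0.12 in Cy-3 alone, and from -0.30 (without C10-434) to 1.1 (without C10-435) with an array left out. The causes were not tested. No paired analysis was possible because the labels give neither settled groups nor shared replicate numbers. Bad and the dimmer Bcl2l1 probes lie close to background, which limits their precision.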
